A study of Mus musculus with 36 samples.

Results

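Chromatin accessibility was compared between mouse bone marrow-derived dendritic cells exposed to PAM alone and unstimulated cells of the same kind, to find which loci open and which close with a TLR2 ligand given by itself. The members are the 2 PAM libraries, the 2 control libraries and the 119750 peaks outside the mitochondrial genome, of 36 libraries and 119751 peaks in all. The cells came from female C57BL/6J mice of 6 to 8 weeks and were grown from femoral and tibial marrow in medium with 15 ng/mL GM-CSF. Each ligand acted for 6 h, nuclei of 50000 cells went into each library, and the labels name no genetic change in any group. The labels name the agents PAM, LPS, HMW, SeV and 3',3'-cGAMP (cGAMP below) without a dose. PAM was also given with each of the others, and 4 further comparisons set PAM plus HMW against HMW, PAM plus LPS against LPS, PAM plus SeV against SeV and PAM plus cGAMP against cGAMP, each with 2 libraries a group. They share no library with PAM against control. GM-CSF cultures of this kind hold dendritic cells and macrophage-like cells together, and the labels do not say whether the 2 libraries of a group came from separate cultures, so the p-values measure the spread between libraries only.

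TLR2 is a cell-surface receptor that pairs with TLR1 or TLR6 to bind bacterial lipopeptides, of which PAM compounds are synthetic versions. It signals through the adaptors TIRAP and MyD88 and the IRAK kinases to the NF-kappaB and AP-1 transcription factors, which drive cytokine and chemokine genes. TLR4, the LPS receptor, and STING, which senses cyclic dinucleotides such as cGAMP, also switch on type I interferon. In ATAC-seq a transposase cuts open DNA, and the count of a peak is a measure of how accessible that site is across all cells of the sample.

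The 4 libraries held between 25162520 and 29996790 counts, of which 48.5% to 61.9% fell in the single mitochondrial peak. Outside it, 11213646 to 12966927 counts remained per library. The mitochondrial share was 61.0% ± 1.23 (SD, n = 2) in the control and 49.5% ± 1.44 with PAM. In PAM against control, the ligand and this share cannot be told apart. It was closer within the pairs that add PAM to HMW (51.6% ± 2.45 and 50.4% ± 2.34), SeV (47.9% ± 1.12 and 45.8% ± 1.12) and cGAMP (46.1% ± 1.61 and 45.1% ± 0.889), and higher with PAM in the LPS pair (44.4% ± 0.328 and 51.6% ± 3.09). Log2 CPM (read counts scaled to a common library size) correlated across peaks with r = 0.925 between the control libraries and 0.938 between the PAM libraries, against 0.857 to 0.868 between groups. One peak, at chr1:24611386-24616337, held 16.6% ± 0.113 (SD, 36 libraries) of the mitochondrial count in every library, and so took 27.0% and 25.1% of the remaining counts in the control and 17.1% and 15.7% with PAM. Levels below are CPM scaled by TMM, a method that sets library scale from the bulk of the peaks. In such pooled cells, a change in the share of cells in which a site is open and a change in accessibility per cell cannot be told apart.

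PAM alone moved accessibility at 24529 of 119464 tested peaks (20.5% called at an adjusted p under 0.05), 13236 higher (11.1%) and 11293 lower (9.45%). Among called peaks, the median log2 fold change was 1.51 for higher and -0.90 for lower calls. By over 2 on the log2 scale, 4161 peaks were higher and 807 lower. The median of the mean CPM was 3.52 for higher and 8.04 for lower calls. Smaller changes can be called at stronger peaks, so the sizes of called openings and closings are not a like comparison. Both PAM libraries lay above both control libraries at 27.1% of tested peaks and below both at 29.3%. The count of calls was 15452 without PAM library 2 and 15590 without control library 1. Scaling by total counts in place of TMM moved the median of all peaks from -0.04 to 0.28 and the share of calls that were higher from 54.0% to 87.1%. With the peak on chromosome 1 and a like one on chromosome 2 left out, that share was 68.0% under total counts. Small changes, up to about 0.32 log2, therefore depend on the scaling in their sign. The scatter shows the fold change of each peak against its level.

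**Figure D1:**
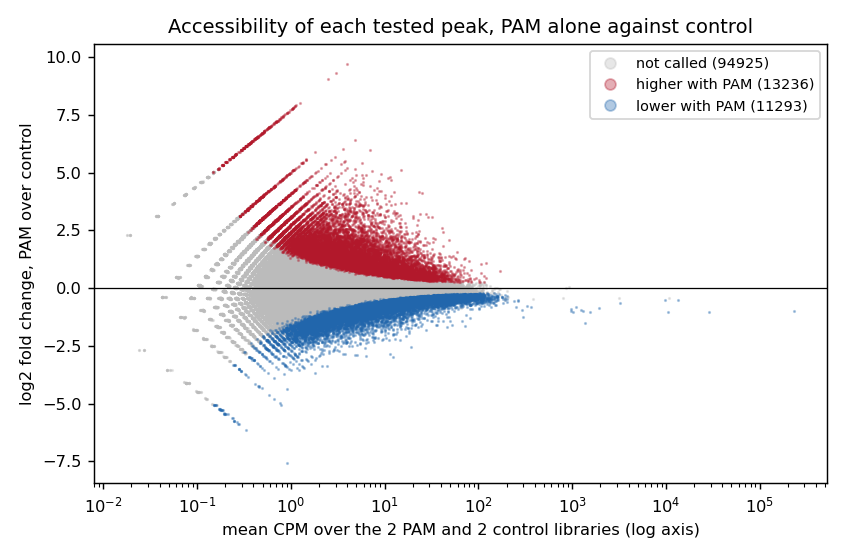
Log2 fold change (PAM over control) against the mean CPM of the 4 libraries (log axis), 1 point per tested peak, red for higher and blue for lower calls. The 13236 higher calls lie above 0 and the 11293 lower calls below it. The farthest points include peaks with no count in 1 group, whose fitted values are not measured folds. The 10 peaks with no count in these libraries are not drawn.

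The lowest p-values among openings belonged to sites inside Ell2, Rbbp8, Unc5c and Alcam and to a distal site nearest Ptgs2. The site inside Ell2 (chr13:75754043-75755548), which encodes an elongation factor of RNA polymerase II, had 2.84 and 2.70 CPM in the control libraries and 40.8 and 54.5 CPM with PAM. Its log2 fold change was 4.10 ± 0.18 (SE), with an adjusted p of 8.69e-54, the lowest of all tested peaks. The rises were 4.15 in Rbbp8, a DNA repair factor gene, 3.07 in Unc5c, a netrin receptor gene, 3.22 in Alcam, an adhesion molecule gene, and 3.06 at the site 89100 bp from Ptgs2. That distal Ptgs2 site (chr1:150197334-150198702) had 8.63 and 4.05 CPM in the control and 48.7 and 55.6 CPM with PAM. The peak at the start of Ptgs2, the gene of cyclooxygenase-2, had 13.6 and 13.0 CPM in the control and 16.2 and 16.6 CPM with PAM, a log2 fold change of 0.30 ± 0.16 that was not called (adjusted p = 0.175) except under total-count scaling.

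The 8 largest increases among peaks with a mean of at least 1 CPM were all at sites with no count in either control library. The site 36770 bp from Ext1 (chr15:53030910-53031491), a gene of heparan sulfate synthesis, had 115 and 99 counts with PAM. Against a floor of 3 counts over the control group, its log2 rise was at least 5.69. The corresponding bounds were at least 5.30 at the cation channel gene Trpm3, 5.02 in the deubiquitinase gene Otud4, 4.01 in Med14, 3.90 near Eea1, 3.86 in the arginine transporter gene Slc7a2, 3.85 at Gm38499 and 3.83 in Nxpe4. No alternative processing ended any of these 8 calls.

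Closings with the lowest p-values were at sites of moderate to high accessibility in resting cells. A site inside Filip1l (chr16:57389441-57391820) had 115 and 113 CPM in the control and 51.7 and 42.0 CPM with PAM, a log2 change of -1.29 ± 0.10 (adjusted p = 1.13e-25). The other 4 were 63923 bp from Adam6b (-1.68), 170551 bp from Samd9l (-1.42), 20037 bp from the mitotic motor gene Cenpe (-1.59) and inside the pseudokinase gene Peak1 (-1.82). In Peak1, 44.6 and 42.6 CPM in the control stood against 12.5 and 12.1 CPM with PAM. The 8 largest decreases were at weaker sites, with log2 changes from -3.66 near Chl1 to -3.39 near Abca13. One of them, inside the DNA methyltransferase gene Dnmt3a (chr12:3860712-3861102), had 5.14 and 3.67 CPM in the control and 0.458 and 0.361 CPM with PAM (-3.39 ± 0.52). The site nearest Cited2 was no longer called without PAM library 1.

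**Figure D2:**
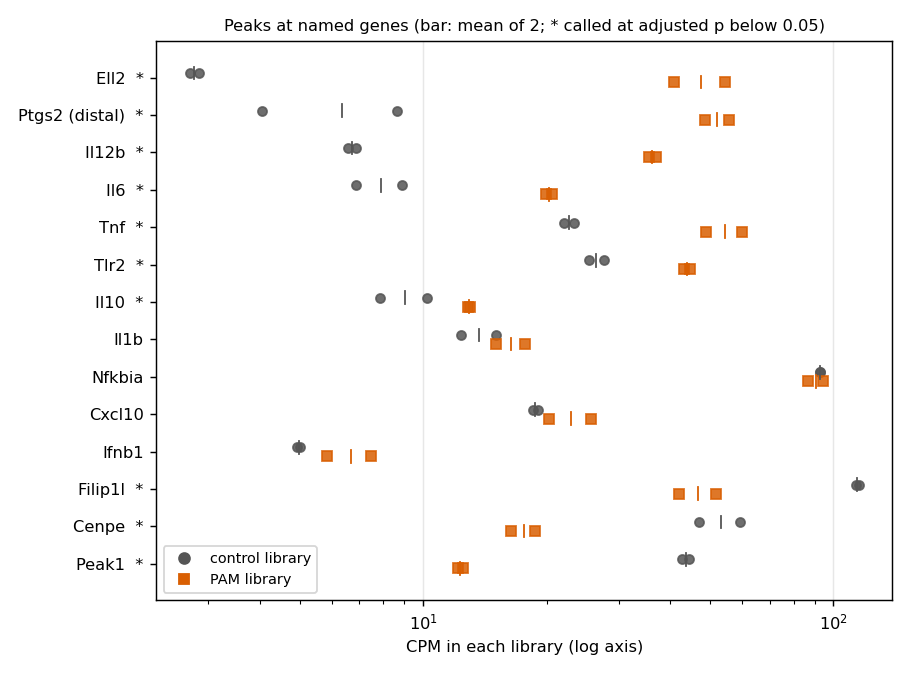
CPM (log axis) of 1 peak for each of 14 named genes in the 2 control libraries (grey circles) and the 2 PAM libraries (orange squares), with a bar at each group mean and a star where the peak was called. The groups stand apart at Ell2, distal Ptgs2, Il12b, Il6, Tnf and Tlr2 and, downward, at Filip1l, Cenpe and Peak1, and lie close together at Il1b, Nfkbia and Cxcl10.

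Sites near receptors and signal carriers of the TLR2 pathway were more often higher than lower. Of 178 tested peaks within 10 kb of 17 pathway genes, 41 were higher and 13 lower, with a median log2 fold change of 0.17 against -0.04 over all peaks. The lower count was 8 without control library 1. Summed over all peaks nearest to a gene within 50 kb, 9 of 17 genes were higher and 2 lower, where 17.8% of 16696 genes tested were higher and 16.7% lower. Cd14, which hands ligands to TLR2 and TLR4, rose from 57.9 and 52.6 to 105 and 104 CPM (0.92 ± 0.09). Tlr2 itself rose by 0.44 ± 0.07 over its peaks, and its strongest peak (chr3:83844663-83845829) went from 27.5 and 25.4 to 44.8 and 43.1 CPM. The sums of its partners Tlr1 and Tlr6 rose by 0.43 and 0.55. Irak3, an inhibitor of IRAK signalling, held the largest single increase of the list, from 0.655 and 0.193 to 7.25 and 9.17 CPM at a site 2030 bp from the gene (4.29 ± 0.45), and 12 of its 29 peaks were higher. Irak4 (-0.33 ± 0.08) and Map3k7 (-0.19 ± 0.08) were lower as sums, but not when counts were scaled by their totals. The call of Map3k7 was also lost in a fit of the 2 groups alone, without either PAM library and without control library 2. The sum over Myd88 was not called (-0.32 ± 0.20, adjusted p = 0.235).

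The scavenger receptor gene Cd36, a helper of TLR2-TLR6 ligand uptake, held sites of both directions: 3 of its 34 peaks were higher and 4 lower, and its sum was not called (-0.03 ± 0.05). At the peak over a Cd36 start (chr5:17835523-17836243), 14.2 and 15.0 CPM in the control stood against 4.43 and 4.98 CPM with PAM (-1.63 ± 0.26). Sites 4530 and 5644 bp from the gene were lower by 1.77 and 1.37. The last of these calls was lost with DESeq2.

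NF-kappaB subunits and their inhibitors gained accessibility at 50 of 183 peaks and lost it at 7 (median log2 fold change 0.40), or at 3 without PAM library 2 or control library 1. As sums, 10 of 15 genes were higher and 0 lower. A site inside Nfkb1 (chr3:135640041-135640780), the gene of the p50 precursor, rose from 1.53 and 1.25 to 21.8 and 22.4 CPM (3.99 ± 0.23), and 16 of the gene's 46 peaks were higher. Nfkb2 (0.93 ± 0.08) and the inhibitors Tnip1 (0.92 ± 0.07) and Tnfaip3 (0.72 ± 0.06) rose by like amounts as sums. The start of Nfkbia, the gene of the inhibitor IkappaB-alpha, was already at 92.8 and 92.5 CPM in the control and had 94.5 and 86.6 CPM with PAM, a log2 fold change of -0.03 ± 0.09 that was not called (adjusted p = 0.846). That value was positive and called under total-count scaling (0.29) and with offsets that follow abundance (0.24).

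Cytokine loci showed the highest share of openings of the 13 lists: 67 of 163 peaks were higher and 3 lower, with a median of 0.72, and the sums of all 17 genes were higher. The largest sums were those of Csf3 (1.75 ± 0.34, from 3.05 and 1.26 to 6.64 and 7.66 CPM), Il6 (1.66 ± 0.11), Il27 (1.56 ± 0.11), Il23a (1.48 ± 0.14) and Tnf (1.37 ± 0.10). The site 9330 bp from Il12b (chr11:44389800-44390733), which encodes the p40 subunit of IL-12 and IL-23, rose from 6.56 and 6.85 to 36.9 and 35.5 CPM (2.43 ± 0.15, adjusted p = 2.81e-35). A peak at an end of the same gene fell from 10.4 and 10.8 to 4.27 and 3.18 CPM (-1.51 ± 0.27). Sites near Il1a and Tnfsf15 rose by 4.18 and 4.08, from 0.219 and 0.289 CPM and from 0.437 and 1.35 CPM in the control libraries. Il10, an anti-inflammatory cytokine, was higher by 1.19 ± 0.08 as a sum, while its strongest peak was higher by 0.51 ± 0.19 (adjusted p = 0.0356), a call lost without either PAM library or without control library 1. The strongest Il1b peak was not called (12.4 and 15.1 against 15.0 and 17.7 CPM, adjusted p = 0.316) except under total-count scaling, although the sum over Il1b was higher by 0.90 ± 0.08.

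The start regions of Il6, Tnf and Cxcl3 opened and that of Cd36 closed, so their 250 bases before the start are shown (RefSeq, GRCm38.p6), in lower case with matches of the NF-kappaB letters (GGGA, any 4 bases, CC), the AP-1 letters TGANTCA and the C/EBP letters TTGCNNAA on either strand in capitals. The run of capitals nearest the start in Il6 and the one in Cxcl3 each join overlapping NF-kappaB matches on the 2 strands.
Il6, chr5:30012864-30013113, plus strand: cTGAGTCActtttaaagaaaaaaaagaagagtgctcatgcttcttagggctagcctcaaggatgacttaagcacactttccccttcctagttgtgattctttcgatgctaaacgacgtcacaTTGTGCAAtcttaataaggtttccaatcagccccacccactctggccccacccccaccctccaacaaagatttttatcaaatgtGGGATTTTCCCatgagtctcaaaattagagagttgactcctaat
Cxcl3, chr5:90785851-90786100, plus strand: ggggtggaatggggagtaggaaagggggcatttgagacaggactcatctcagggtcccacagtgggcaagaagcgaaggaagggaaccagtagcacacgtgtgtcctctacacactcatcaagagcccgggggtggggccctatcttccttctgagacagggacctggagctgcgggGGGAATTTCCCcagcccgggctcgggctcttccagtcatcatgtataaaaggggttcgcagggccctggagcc
Tnf, chr17:35202008-35202257, minus strand: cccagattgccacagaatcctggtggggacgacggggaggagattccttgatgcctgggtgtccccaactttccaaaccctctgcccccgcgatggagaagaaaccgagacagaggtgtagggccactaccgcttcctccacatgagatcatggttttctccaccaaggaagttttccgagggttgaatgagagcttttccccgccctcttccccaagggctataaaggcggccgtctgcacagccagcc
Cd36, chr5:17835897-17836146, minus strand: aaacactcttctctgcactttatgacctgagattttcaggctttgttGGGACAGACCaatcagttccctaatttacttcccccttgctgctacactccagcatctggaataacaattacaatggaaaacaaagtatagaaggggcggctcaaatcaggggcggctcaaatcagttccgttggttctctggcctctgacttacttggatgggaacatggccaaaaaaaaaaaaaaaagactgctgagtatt
In Il6 the NF-kappaB match on the plus strand spans -44 to -35 from the start, the AP-1 match -249 to -243 and the C/EBP match -128 to -121. In Cxcl3 the NF-kappaB match spans -73 to -64, and in Cd36 it spans -203 to -194. The peak over the Il6 start rose from 6.88 and 8.88 to 19.9 and 20.7 CPM (1.36 ± 0.16), that over the Cxcl3 start from 6.34 and 3.76 to 18.2 and 20.2 CPM (1.94 ± 0.24), and that over Tnf from 23.3 and 22.0 to 48.9 and 59.8 CPM (1.27 ± 0.11). The Tnf window holds no match of the 3 letter patterns. A match is a string of letters and was not tested as a binding site.

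Among all RefSeq start windows (250 bases before to 50 after a start), the same letters were counted where a tested peak overlapped. NF-kappaB letters stood in 29.4% of 517 windows with a higher peak, 26.3% of 3709 with a lower peak, 27.0% of 10258 with an uncalled peak and 20.7% of all 32851 windows. AP-1 letters stood in 13.3%, 4.45%, 5.78% and 7.81% of these 4 sets, and C/EBP letters in 18.2%, 7.71%, 8.81% and 10.8%. GC-box letters (GGGCGG) stood in 41.2%, 68.9%, 60.9% and 35.7%. Windows of 1 gene overlap, so these shares are a description.

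Inflammatory chemokine loci held 19 higher and 1 lower of 65 peaks (median 0.54), and 10 of 12 genes were higher as sums. The neutrophil attractant Cxcl3 led (1.64 ± 0.15, from 17.96 and 17.03 to 49.5 and 59.0 CPM), followed by Ccl5 (1.05 ± 0.10) and Ccl7 (1.01 ± 0.26). A site 9875 bp from Cxcl1 rose from 0 and 0.482 to 3.28 and 3.97 CPM (3.79 ± 0.62). The sums over Ccl2 (-0.04 ± 0.08) and Ccl9 (0.19 ± 0.13) were not called. The calls of Ccl7, Ccl17 and Cxcl1 were lost without control library 1, that of Ccl22 without PAM library 1, and that of Ccl17 also without PAM library 2.

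Enzymes and secreted effectors of inflammation held 93 higher and 6 lower of 280 peaks (median 0.82), and 17 of 18 genes were higher as sums. Ptges, the microsomal prostaglandin E synthase that acts after cyclooxygenase-2, had the lowest p-value of all genes: 49.1 and 49.3 CPM in the control and 169 and 189.6 CPM with PAM (1.86 ± 0.07, adjusted p = 1.45e-60). Slc7a2 rose at 29 of the 51 peaks in its sum (1.25 ± 0.06, from 102 and 112 to 246 and 264 CPM). The acute-phase gene Saa3 (1.45 ± 0.19), the iron-trapping Lcn2 (1.33 ± 0.20), Nos2, which makes nitric oxide (0.99 ± 0.18), and Acod1, which makes itaconate (0.61 ± 0.06), were also higher. Arg1, a marker of the opposed arginase route, was the member that was not called (0.11 ± 0.09). The other arginase gene of the list, Arg2, was higher (0.70). The sum over Pfkfb3 (0.13, adjusted p = 0.0429) was not called under 9 of 16 alternatives, RLE scaling and DESeq2 among them. The calls of Hdc, Hif1a and Slc2a1 were lost without PAM library 2, and that of Sod2 without PAM library 1 or control library 2. Slc7a11, the cystine transporter gene, rose as a sum (0.71 ± 0.05) with 22 peaks higher and 3 lower of 48.

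Feedback regulators were higher at 27 and lower at 4 of 117 peaks (median 0.22), and 10 of 14 were higher as sums. Socs3, an inhibitor of STAT3 signalling, led with 68.7 and 75.8 CPM in the control and 198 and 207 CPM with PAM (1.48 ± 0.07), and 11 of the 16 peaks in its sum were higher. A site 6998 bp from Socs3 rose from 3.93 and 3.18 to 18.2 and 19.0 CPM (2.39 ± 0.21). Gadd45b (0.84 ± 0.07) and the phosphatase genes Dusp2 (0.79 ± 0.10) and Dusp4 (0.54 ± 0.09) rose less. Zfp36, Pim1, Dusp5 and Dusp6 were not called.

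AP-1 genes stood near the background, with 11 peaks higher and 10 lower of 112 (median -0.03), and 23 higher and 2 lower under total-count scaling. With PAM library 2, control library 1 or control library 2 left out, 7 were higher, and without control library 2, 5 were lower. As sums, Batf (0.75 ± 0.07), Fosl2 (0.74 ± 0.07) and Maff (0.36 ± 0.10) were higher and Batf3 (-0.29 ± 0.08) and Fosb (-0.35 ± 0.08) lower. Both lower calls were lost under total-count scaling, that of Batf3 also without PAM library 2 and that of Fosb without control library 2. A site inside Batf rose from 0.765 and 0.386 to 6.87 and 4.05 CPM (3.25 ± 0.43). The sums of the immediate-early genes Fos, Jun and Junb were not called, at 0.08, 0.02 and 0.11.

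**Figure D3:**
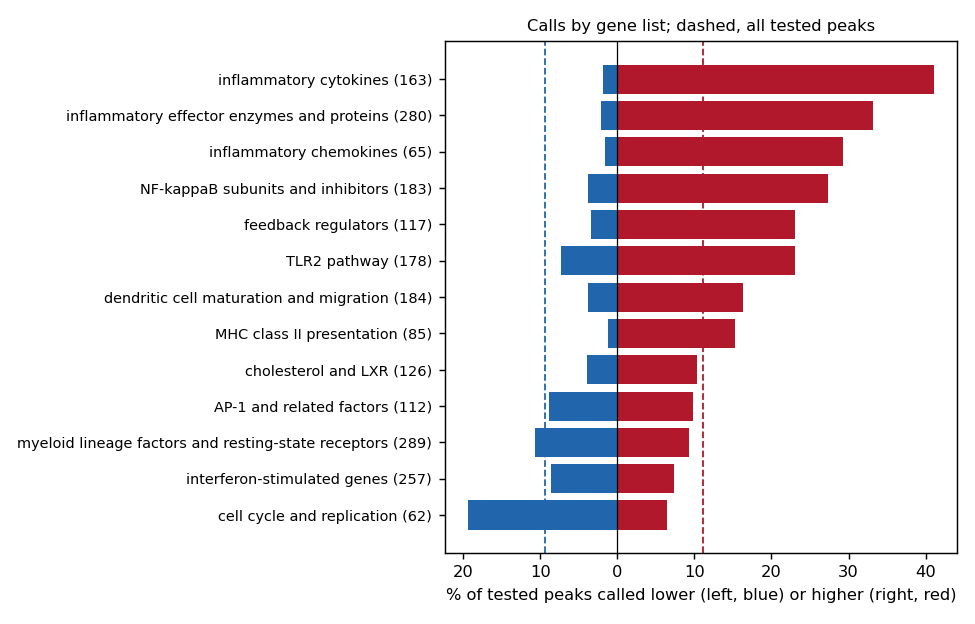
Share of tested peaks called higher (right, red) and lower (left, blue) with PAM within 10 kb of the genes of each list, with the number of peaks in brackets and dashed lines at the shares over all tested peaks (11.1% and 9.45%). Cytokines, effectors and chemokines reach 41.1%, 33.2% and 29.2% higher, and the cell cycle list has 19.4% lower.

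Genes of dendritic cell maturation and migration were higher at 30 and lower at 7 of 184 peaks (median 0.20), and 9 of 14 were higher as sums. Traf1 (1.21 ± 0.09), the costimulatory receptor gene Cd40 (1.08 ± 0.11), the actin-bundling Fscn1 (0.86 ± 0.14) and Ccr7, the lymph node homing receptor (0.55 ± 0.08), were among them. The sums over the costimulatory genes Cd80 and Cd86 were not called (-0.05 and 0.03), and Il15 was lower by 0.21 ± 0.06, which was not called under total-count scaling, in a fit of the 2 groups alone or without PAM library 2. MHC class II genes were higher at 13 (15.3%) and lower at 1 (1.18%) of 85 peaks (median 0.19), with 7 higher without PAM library 2. Over all tested peaks, 11.1% were higher and 9.45% lower. The largest sum was that of H2-Ob (1.62 ± 0.14), a brake on peptide loading, from 10.7 and 14.0 to 35.3 and 41.1 CPM. The peak at an end of Ciita, the class II transactivator, fell from 3.28 and 4.34 to 0.916 and 0.939 CPM (-2.03 ± 0.49), while 3 of the gene's 16 peaks were higher.

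Lineage factors and resting-state receptors were higher at 27 and lower at 31 of 289 peaks (median -0.01), which became 56 and 9 under total-count scaling. The lower count was 18 without PAM library 1 and 15 without control library 1, and the higher count 18 without control library 2. Sums over Itgax, the CD11c gene (0.90 ± 0.10), Cx3cr1 (0.79 ± 0.07) and Runx1 (0.45 ± 0.05) were higher. Those over Mef2c (-0.52 ± 0.06) and the lectin gene Cd209a (-1.48 ± 0.31) were lower, with 227 and 217 CPM in the control against 156 and 154 with PAM at Mef2c. Spi1 and Irf8, factors that define the lineage, were not called (0.12 and 0.04). In the cholesterol and LXR list, 13 of 126 peaks were higher (10.3%) and 5 lower (3.97%), with a median of 0.07. Over all tested peaks, 11.1% were higher and 9.45% lower. The list had 7 higher and 2 lower without control library 1, 2 lower without PAM library 1 and 3 lower without PAM library 2. As sums, 3 of its 13 genes were higher and 2 lower. Apoe, a lipid carrier gene, was lower at all 4 of its peaks (3 of them named by the rule, of which 2 were lost without PAM library 2) and as a sum (-1.47 ± 0.25, from 11.9 and 13.5 to 4.42 and 4.72 CPM), whereas Nr1h3, the LXR-alpha gene (0.81 ± 0.13), and the cholesterol exporter gene Abca1 (0.33 ± 0.06) were higher. Cell cycle genes were lower at 12 and higher at 4 of 62 peaks (median -0.20), which became 3 lower and 5 higher under total-count scaling (median 0.12). Without PAM library 1, PAM library 2 and control library 1, the lower count was 7, 7 and 4. As sums, 2 of 15 cell cycle genes were higher and 3 lower, where 17.8% of all genes tested were higher and 16.7% lower. Mki67 (0.39) and Mcm5 (0.34) were the higher ones, the call of Mcm5 lost without control library 1. Mcm3, a replication helicase subunit (-0.42 ± 0.08), Ccna2 (-0.33) and Cdk1 (-0.23) were lower, calls lost under total-count scaling.

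Markers of the labelled cell type were present: the summed level of 10 dendritic and myeloid markers was 708 to 730.2 CPM in the control and 762 to 805 CPM with PAM. Of their 133 peaks, 17 were higher (12.8%) and 4 lower (3.01%), where 11.1% and 9.45% of all tested peaks were. Neutrophil markers summed to 64.0 to 77.7 CPM in the control and 82.1 to 96.6 CPM with PAM, with 2 of 22 peaks higher and 0 lower. As sums, Camp (0.86 ± 0.15) and S100a8 (0.37 ± 0.14) were higher, the latter not without PAM library 2 or control library 2 or with DESeq2. Ly6g (0.73), Mpo (0.83), Elane (-0.67) and S100a9 (-0.28) were not called. The part of such cells in the results was not tested. Summed levels of B cell, T cell, erythroid, mast cell and basophil, and fibroblast markers are given in that order, control before PAM (70.5 to 78.8 and 74.8 to 76.6, 25.8 to 28.5 and 26.1 to 32.0, 120.5 to 130 and 121 to 125, 14.1 to 14.9 and 14.9 to 17.6, and 98.9 to 103 and 109 to 124 CPM). The ranges did not overlap for fibroblast markers, and their part in the results was not tested. They held 2 higher and 3 lower of 28 peaks, 1 and 0 of 7, 0 and 1 of 12, 1 and 0 of 10, and 2 and 1 of 29. Bcl11b of T cells and Gata1 of erythroid cells had no tested peak within 10 kb.

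Openings and closings near interferon-stimulated genes were about equal in number with PAM alone: 19 peaks were higher and 22 lower of 257 (median -0.01), near the background in both directions, with 42 higher and 8 lower under total-count scaling. The lower count was 9 without PAM library 2, 12 without either control library, and the higher count was 14 without PAM library 2. At the strongest peak within 10 kb of each of 24 such genes, 22 distinct peaks in all, 2 were higher than the control and 5 lower. Strongest here means the highest mean CPM over the control, PAM, LPS, cGAMP and SeV libraries. That choice favours peaks that are high with LPS, cGAMP or SeV. The counts of these peaks against LPS and cGAMP are therefore a description. Direct comparison with the other single ligands gave a different count. Against LPS, 0 of these 22 peaks were higher and 18 lower with PAM, where 5.19% of all tested peaks were lower. Against cGAMP, 0 were higher and 21 lower, where 11.1% of all were lower. Over the whole list, 115 of 257 peaks were lower and 7 higher with PAM than with LPS (median -1.12), where 5.87% of all were higher, and 131 lower and 9 higher than with cGAMP (median -1.15), where 12.7% of all were higher. These comparisons use the same PAM libraries as the one against control. Across all alternatives, 84 to 128 peaks of the list were lower than with LPS. Of the strongest peaks, 13 of the 18 lower than with LPS and 18 of the 21 lower than with cGAMP kept their call in every alternative.

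The peak over Ifit2 and Ifit3 (chr19:34572687-34579247), antiviral genes, had 8.85 and 5.02 CPM in the control, 4.88 and 2.82 CPM with PAM, 59.0 and 67.5 CPM with LPS and 51.4 and 50.7 CPM with cGAMP. It was lower with PAM than with LPS by 4.04 ± 0.15 on the log2 scale, and its lower call against the control (-0.84) was lost under total-count scaling, in a fit of the 2 groups alone, without PAM library 2 and without control library 1. Rsad2, the viperin gene, had 25.6 and 28.0 CPM in the control, 31.4 and 34.7 CPM with PAM and 121 and 129 CPM with LPS. Its call against the control (0.30) was lost without PAM library 2 or control library 1. Cxcl10, a T cell attractant induced by interferon, had 18.6 and 19.0, 25.6 and 20.3, and 60.3 and 58.2 CPM in the same order, and its change against the control was not called (0.29 ± 0.12, adjusted p = 0.0812), though it was called higher under 5 of 17 alternatives. The peak counted for Isg15 (chr4:156195135-156199490) had Agrn as its nearest gene. It was higher than the control by 0.37 (adjusted p = 0.00166) and lower than with LPS by 0.63. The strongest peaks counted for Gbp5, Mx1, Mx2, Cxcl9 and Ifi205 were also nearest to other genes (Gbp7, Fam3b, Tmprss2, Art3 and Olfr433). The strongest peak near Ifnb1, 2490 bp from the gene of interferon beta, had 5.03 and 4.92 CPM in the control and 7.48 and 5.85 CPM with PAM and was not called (adjusted p = 0.333). As sums, 9 of 21 interferon-stimulated genes were higher and 4 lower, where 17.8% of all genes tested were higher and 16.7% lower. Higher sums were thus more frequent than over all genes, unlike higher peaks. Among the called sums were Cxcl9 (1.17, from 1.06 and 1.79 to 3.80 and 2.69 CPM), Gbp5 (0.57) and Ifi44 (-0.63). Of these 3, Cxcl9 lost its call without PAM library 1 or control library 1 and Ifi44 under total-count scaling. Isg15 lost its call under 5 of 16 alternatives and Gbp2 under 4, Irf7, Cxcl10, Stat2 and Ifi205 lost theirs without PAM library 1, and the lower sums of Ifit3, Cmpk2 and Ddx58 lost theirs under total-count scaling. A site inside Usp18, which removes ISG15, did rise, from 1.97 and 0.772 to 13.6 and 10.3 CPM (3.14 ± 0.31). The 3 largest decreases of the list, at Oasl1, Perm1 near Isg15 and Ifit1, rest on 8, 7 and 7 counts in the control and 0 with PAM, and were each lost when a library was left out. Maturation genes were also less accessible than with LPS, at 30 of 184 peaks against 3 that were more accessible (median -0.46).

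**Figure D4:**
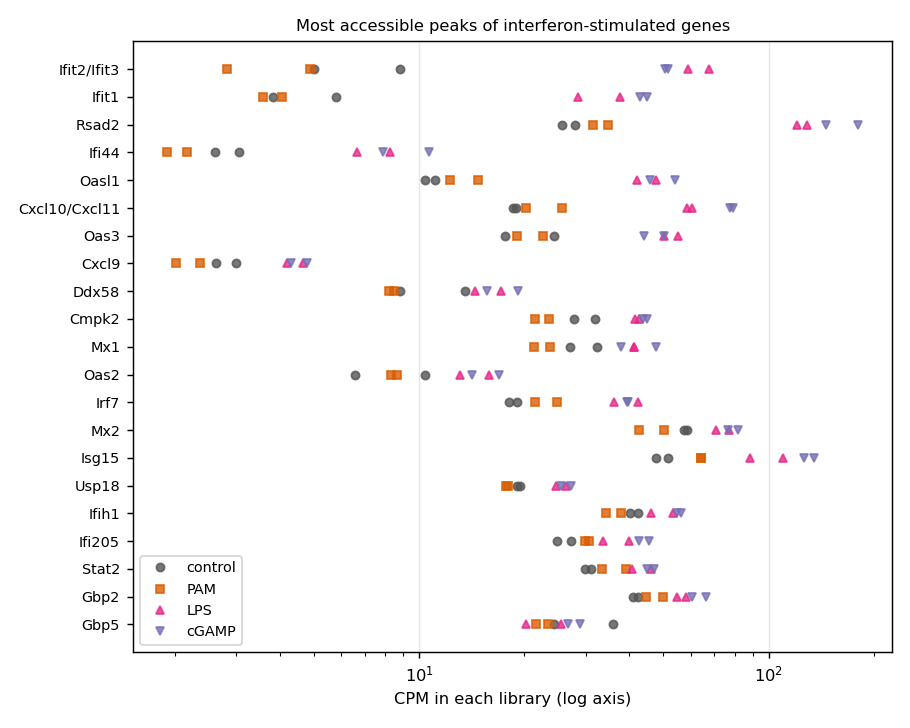
CPM (log axis) at 21 of the 22 strongest peaks within 10 kb of interferon-stimulated genes, ordered by the difference between PAM and LPS. Points are the libraries of the control (grey), PAM (orange), LPS (pink) and cGAMP (purple) groups. Peaks were chosen by mean CPM over the control, PAM, LPS, cGAMP and SeV libraries, which favours those high with LPS, cGAMP or SeV. Some names, such as Isg15, Mx1 and Mx2, mark peaks whose nearest gene is another. The PAM and control libraries lie side by side while LPS and cGAMP lie to the right at most genes, most of all at Ifit2/Ifit3, Ifit1 and Rsad2.

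Summed over the peaks of each gene, 5768 of 16696 genes were called (34.5%), 2977 higher and 2791 lower. After Ptges, the lowest p-values among higher genes were those of Mrpl39 (1.53 ± 0.06), Unc5c (2.34 ± 0.10), Socs3, LOC115488765 (2.36 ± 0.11), Slc7a2, the glutamate transporter gene Slc1a2 (1.29 ± 0.06) and Clec4e (1.85 ± 0.10). Clec4e, the receptor Mincle, went from 25.7 and 27.4 to 98.9 and 93.3 CPM. The lowest among lower genes were the monocarboxylate transporter gene Slc16a7 (-0.83 ± 0.06, lower at 11 of its 15 peaks), Ank2 (-0.86), the cadherin Fat3 (-0.68), Fbxl4 (-0.80), the retinol enzyme gene Dhrs3 (-0.88), Plxna4 (-1.05) and Flrt2 (-0.67). Each of these calls held under every alternative.

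Windows of 500 kb with at least 10 tested peaks, 3089 in all, were ranked by their share of called peaks, without a test of clustering. High shares of higher peaks were found in windows over Emcn (10 of 16) on chromosome 3, over Tceanc and Egfl6 (12 of 20, with 2 lower) on chromosome X, over Unc5c and Bmpr1b (9 of 15, with 1 lower) on chromosome 3, and one on chromosome 6 with no protein-coding gene (6 of 11). The highest shares of lower peaks were in the window over Slc16a7 on chromosome 10 (11 of 15, median -1.13), a cluster of zinc finger genes with Syndig1 on chromosome 2 (7 of 10), and windows over St6galnac3 (12 of 22), Mettl4 (6 of 11) and Necab1 with Tmem64 (6 of 11). None of these 5 held a higher peak.

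The 16 peaks summed under Mrpl39 include those around Mir155, a microRNA gene known for its rise in activated myeloid cells and for its targeting of inhibitors of signalling. Mir155 and Mir146, which encodes the NF-kappaB-induced brake miR-146a on IRAK and TRAF6 transcripts, were picked after their values were seen. Among 666 miRNA hairpins with a tested peak within 10 kb, 148 had a higher and 116 a lower peak, and 40 had at least 2 higher. Over all tested peaks, 11.1% were higher and 9.45% lower. A hairpin can have several peaks within 10 kb, so its chance of a call is not that of a single peak. The guide strands of Mir155 and Mir146 are shown with the seed, bases 2 to 8, in capitals (RefSeq, GRCm38.p6).
mmu-miR-155-5p: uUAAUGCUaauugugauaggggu
mmu-miR-146a-5p: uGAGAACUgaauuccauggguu
The peak over the Mir155 hairpin (chr16:84711200-84714913) had 14.3 and 9.45 CPM in the control and 58.7 and 48.8 CPM with PAM (2.19 ± 0.13, adjusted p = 2.74e-38). The wide peaks on either side rose from 19.3 and 18.1 to 80.9 and 75.8 CPM (2.06 ± 0.11) and from 4.48 and 6.27 to 50.9 and 48.7 CPM (3.20 ± 0.22). These 3 wide peaks differed from LPS by 0.14, -0.05 and -0.25 log2, with adjusted p of 0.389, 0.820 and 0.357. Both remaining peaks within 10 kb were called higher too (1.26 and 2.29), one lost without PAM library 1 or control library 1, the other, with an adjusted p of 0.0497, under 8 alternatives. Near Mir146 a site at chr11:43368333-43369018 rose from 5.68 and 5.98 to 13.0 and 13.9 CPM (1.20 ± 0.23).

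Lower peaks lay at gene ends more often than higher peaks where the change was small. Gene ends, meaning positions up to 1 kb from the first or last base of any protein-coding gene, held 14.3% of all tested peaks, against 6.95% of the higher, 28.9% of the lower and 13.6% of the uncalled peaks. Among the lower peaks the share was 45.7% where the change was under 1 log2, 7.36% from 1 to 2 and 7.68% over 2. Among the higher peaks it was 11.2%, 5.97% and 4.85% in the same order. The small closings at gene ends depended on the scaling: under total counts 3420 peaks were lower, 14.4% of them at gene ends, and the median log2 fold change of gene-end peaks went from -0.17 to 0.15. Higher peaks had 11.7% at gene ends under that scaling. Level moved with it: the median of the mean CPM was 3.52 for higher, 8.04 for lower and 1.79 for uncalled peaks, and in the uppermost of 4 equal bins of mean CPM, 43.7% of lower and 34.5% of uncalled peaks lay at gene ends.

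Changes with PAM alone were set beside those with PAM added to other ligands, in libraries that the first comparison did not use. Adding PAM moved 9022 peaks on HMW (7.55%), 1347 on LPS (1.13%), 3505 on SeV (2.93%) and 10888 on cGAMP (9.11%). The lower calls were 2717 on HMW (2.27%), 433 on LPS (0.362%), 588 on SeV (0.492%) and 4205 on cGAMP (3.52%). Of the 13236 peaks higher with PAM alone, 89.9% changed in the same direction on HMW, 84.4% on cGAMP, 81.7% on SeV and 73.7% on LPS, where 46.7% to 49.6% of all tested peaks were above 0. Of the 11293 lower peaks the shares were 86.7%, 82.3%, 76.5% and 65.3%, where 50.4% to 53.3% of all were below 0. Their median log2 changes were 0.63, 0.59, 0.39 and 0.25 for the higher and -0.30, -0.28, -0.17 and -0.11 for the lower peaks, against 1.51 and -0.90 alone. The peaks were picked by their change alone, which enlarges the medians alone, so these sizes are not a like comparison. On HMW, 4602 of the higher peaks were called higher again, 34.8% of the calls alone and 73.0% of the 6305 higher calls on HMW. On cGAMP it was 4097 (31.0% and 61.3%). Opposite calls numbered 8 to 57 in each direction and setting. Across all tested peaks the changes correlated with r = 0.497 for HMW, 0.442 for cGAMP, 0.360 for SeV and 0.249 for LPS, each over 119464 peaks that share their libraries.

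The peaks called higher alone and again on HMW, SeV and cGAMP numbered 1457, or 11.01% of the higher calls, where 1.34% of all tested peaks were higher in those 3 settings. Lower in the same way were 104 peaks (0.921%, against 0.108%). With LPS included as well, 231 peaks (1.75%) were higher and 6 (0.0531%) lower throughout, against 0.198% and 0.00670% of all tested peaks. The Ell2 site was called higher in all 4 settings, by 1.07 on HMW, 0.68 on SeV, 1.08 on cGAMP and 0.66 on LPS, as was Unc5c by 1.33, 1.10, 1.52 and 0.83. The Il12b site rose by 1.31, 0.66 and 1.02 on HMW, SeV and cGAMP and was not called on LPS (0.41, adjusted p = 0.0501). The Tnf start peak was called in none of the 4 settings, with changes from -0.16 to 0.23. Tlr2 was called on HMW (0.53). The Ptgs2 start peak, not called with PAM alone, was higher on HMW (0.94, adjusted p = 3.29e-07), on cGAMP (0.62) and on LPS (0.62). For cytokine loci, 36 of 163 peaks were higher on HMW, 33 on cGAMP, 25 on SeV and 12 on LPS, where 5.28%, 5.59%, 2.44% and 0.765% of all peaks were higher.

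**Figure D5:**
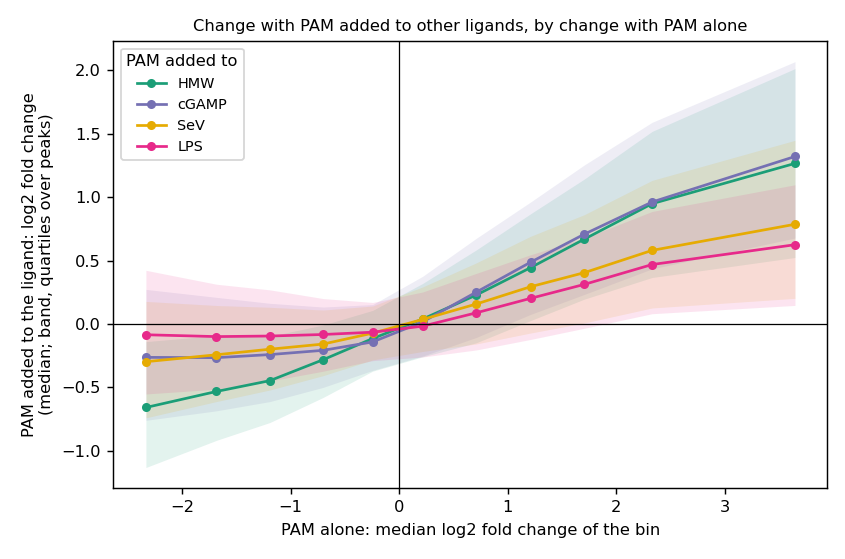
Median log2 fold change when PAM was added to each of 4 ligands (vertical axis, band, the interquartile range over peaks) in bins of the change with PAM alone (horizontal axis, at the bin median). Peaks that rose by over 3 alone (median 3.64) rose by a median of 1.27 on HMW, 1.32 on cGAMP, 0.79 on SeV and 0.63 on LPS, and in the lowest bin (median -2.33) the HMW line reaches -0.66 and the LPS line -0.08. Bins are set by the change alone, so the choice enlarges that change in the outer bins.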

How the data were processed

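ATAC-seq libraries of 18 groups, 2 libraries each, were read from 1 deposited table of read counts per peak, not normalized. Reads were aligned with Bowtie2 2.2.9 to mm10, peaks called with MACS2 and reads counted with featureCounts, per the submitters' processing notes; filters on duplicates or mitochondrial reads, and whether peaks were called on pooled libraries, are not given in the sources used here.

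The mitochondrial peak was left out, as were 286 peaks below edgeR's filterByExpr with a minimum count of 10. The deposited counts were tested with edgeR 4.0.16 (R 4.3.3): TMM scaling, quasi-likelihood fits with trended dispersion and robust shrinkage over all 36 libraries (18 residual degrees of freedom), and Benjamini-Hochberg adjustment over all 119464 tested peaks, called at an adjusted p under 0.05. CPM use TMM effective library sizes. SE is the log2 fold change divided by the square root of the quasi-likelihood F. The script was tested on simulated data with 50 peaks changed by each log2 fold. Called were 20 at 1, 10 at -1, 50 at 2 and 48 at -2, with 8 false calls. In that setting many changes of 1 log2 went uncalled. The changed peaks were drawn above a minimum expected count, and all peaks were given a single dispersion. Far fewer peaks were changed than the 24529 called in the data, which makes the adjusted threshold stricter. The recovery at 1 log2 therefore does not carry over to the real comparison.

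A peak belongs to a listed gene within 10 kb of its body; sums take the nearest protein-coding gene within 50 kb (RefSeq, GRCm38.p6). Named by rule were the 8 largest changes in each direction among called peaks with a mean of at least 1 CPM and groups that do not overlap, the 5 lowest p-values in each direction, the 8 genes with the lowest p in each direction, up to 3 called peaks with the highest and 3 with the lowest change per list, the strongest peaks of 10 preset genes, and 5 windows of 500 kb in each direction. Other genes of the lists are given as examples. The members and lists were chosen with earlier results of these data known. Alternatives covered scaling, filter, dispersion, replicate block, thinning to 8181254 counts, fewer groups, DESeq2 1.42.0 and leaving out each library; 3 were added after the data were seen. Counting precision comes from 11213646 to 12966927 counts per library, and PCR copies are not independent molecules. Some results that the naming rule would give are not reported here.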

Additional observations from a re-analysis of the deposited data

Results flagged for a closer look

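The change with PAM differed between settings by a test of the difference itself, edgeR's quasi-likelihood interaction contrast with Benjamini-Hochberg adjustment over 119464 peaks. The effect of PAM on HMW differed from that of PAM alone at 1856 peaks, above it at 563 and below it at 1293. On LPS it differed at 8065 peaks, 3073 above and 4992 below. On SeV it differed at 5478 peaks, 2008 above and 3470 below. On cGAMP it differed at 3902 peaks, 1305 above and 2597 below. Above and below are signs of the difference, so above includes weaker closings as well as larger openings. These 4 contrasts share the PAM and control libraries and were run with TMM scaling only. Under total-count scaling the median of all peaks moved from -0.04 to 0.28 with PAM alone and from -0.003 to -0.11 on LPS. How far the split by sign depends on the scaling was not tested.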

How the results depend on the processing

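The total of 24529 calls for PAM against control moved by less than 1.5 times under every scaling, filter, dispersion and tool run, but under total-count scaling it was made of 23188 higher and 3420 lower calls in place of 13236 and 11293. It was 15452 to 19127 when 1 library was left out. Leave-one-out ranges were 7028 to 8713 for PAM against LPS (13218 with all libraries), 4505 to 5622 for PAM on HMW (9022), 269 to 635 on LPS (1347), 1340 to 1921 on SeV (3505) and 5338 to 6321 on cGAMP (10888). Thinning to 1 depth left 871 calls on LPS and 2138 on SeV, and a fit of the 2 groups alone gave 6330 on SeV. The share of calls that were higher went, under total-count scaling, from 54.0% to 87.1% with PAM alone, from 67.9% to 34.8% on LPS, from 61.4% to 79.7% on cGAMP, from 53.1% to 36.7% against LPS and from 51.6% to 88.5% for gene sums. The Nfkbia peak reversed from -0.03 to 0.29 under total-count scaling, where the median of all peaks moved from -0.04 to 0.28. With abundance-dependent offsets this peak reversed to 0.24 while that median was -0.04, and the cause of that reversal was not tested. The labels do not say whether the replicate numbers pair the samples. Same-numbered deviations correlated with r = 0.022 for PAM against control. Counting noise at weak peaks can lower such a value, so it does not settle the matter. With the replicate block, calls numbered 24374 for PAM alone, 8900 on HMW, 1359 on LPS, 3478 on SeV, 10811 on cGAMP, 13151 against LPS, 28285 against cGAMP and 5757 for gene sums. Depth limits the weakest sites: the named decreases at Oasl1, Perm1 and Ifit1 rest on 8, 7 and 7 control counts, and each lost its call without PAM library 1, PAM library 2 or control library 2.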
